A study of Mus musculus with 9 samples.

Results

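AP-1 is a family of dimeric transcription factors built from FOS, JUN and BATF proteins, and its subunit transcripts were followed here in a mouse megakaryocytic line with either of 2 chromatin-linked proteins knocked down. The genes were Fos, Fosb, Fosl1, Fosl2, Jun, Junb, Jund and Batf, chosen by name, and every probe set that the platform annotation pairs with exactly 1 of these symbols was taken. This gave 12 probe sets of the 45101 on the array, and 8 of the 18193 genes tested. All 9 arrays came from L8057 cells, a mouse megakaryocytic leukaemia line, infected with lentivirus. CBFb_KD cells carried a short hairpin RNA against CBFb, the partner of RUNX proteins in the core binding factor. Ring1b_KD cells carried one against Ring1b, the ubiquitin ligase of Polycomb repressive complex 1, which is encoded by Rnf2. Control cells carried an empty vector. In all 9 cultures puromycin selection began 48 h after infection, together with TPA, a phorbol ester, at 50 nM. RNA was taken 72 h later, so TPA acted for 3 days. The 3 arrays of a group are described as biological replicates, but nothing states separate infections. The p-values therefore reflect only how far these arrays differ, which may be technical in part. Having 3 arrays a group limits the precision. No array without TPA was analysed here, so the values describe TPA-treated cells and not a response to TPA.

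FOS and JUN proteins are basic leucine zipper factors that bind DNA as pairs. JUN proteins pair with each other or with FOS proteins, whereas FOS proteins need a JUN partner, and the BATF proteins pair with JUN without carrying an activation domain of their own. Phorbol esters activate protein kinase C, and Fos and Jun are classic immediate early genes of that pathway. Fosl1 and Fosl2, which encode FRA-1 and FRA-2, follow later, and Jund is known for steady expression. AP-1 acts beside RUNX and GATA factors at many enhancers of megakaryocytes.

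Fosl2 was the member that stood apart. By its brighter probe set the transcript was about 3-fold higher in both knockdowns. The other probe set stood at 0.68 and 0.61 on the log2 scale, uncalled. At the same time Junb was lower in Ring1b_KD and Jund slightly lower in CBFb_KD. In CBFb_KD 1 of the 8 genes rose and 1 fell, where 15.4% of all tested genes were called by limma at an adjusted p under 0.05, 7.78% higher and 7.6% lower. With same-numbered arrays paired and only CBFb_KD and Control in the fit, 4 of the 8 were called there, Fosl2 and Fos higher and Fosb and Jund lower. That fit, added after the data were seen, called 3903 of the 18193 genes. In Ring1b_KD 1 rose and 1 fell as well, where 12.2% of all genes were called, 5.66% higher and 6.57% lower. Between the knockdowns 1 member was higher in CBFb_KD and 0 lower by limma, where 19.4% of all genes were called, 10.1% higher and 9.31% lower. At an unadjusted p under 0.05 that comparison also held 1 member. The groups did not overlap for 2 of the 8 in CBFb_KD (31.6% of all genes), 3 in Ring1b_KD (32.9%) and 1 between the knockdowns (33.8%). Both knockdowns were set against the same Control arrays, whose cells carried an empty vector. A change shared by both knockdowns and one that goes with carrying any hairpin cannot be told apart in this design. The median log2 fold change of the 8 genes was 0.09 in CBFb_KD and -0.01 in Ring1b_KD, against -0.01 and 0.01 over all genes.

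**Figure D1:**
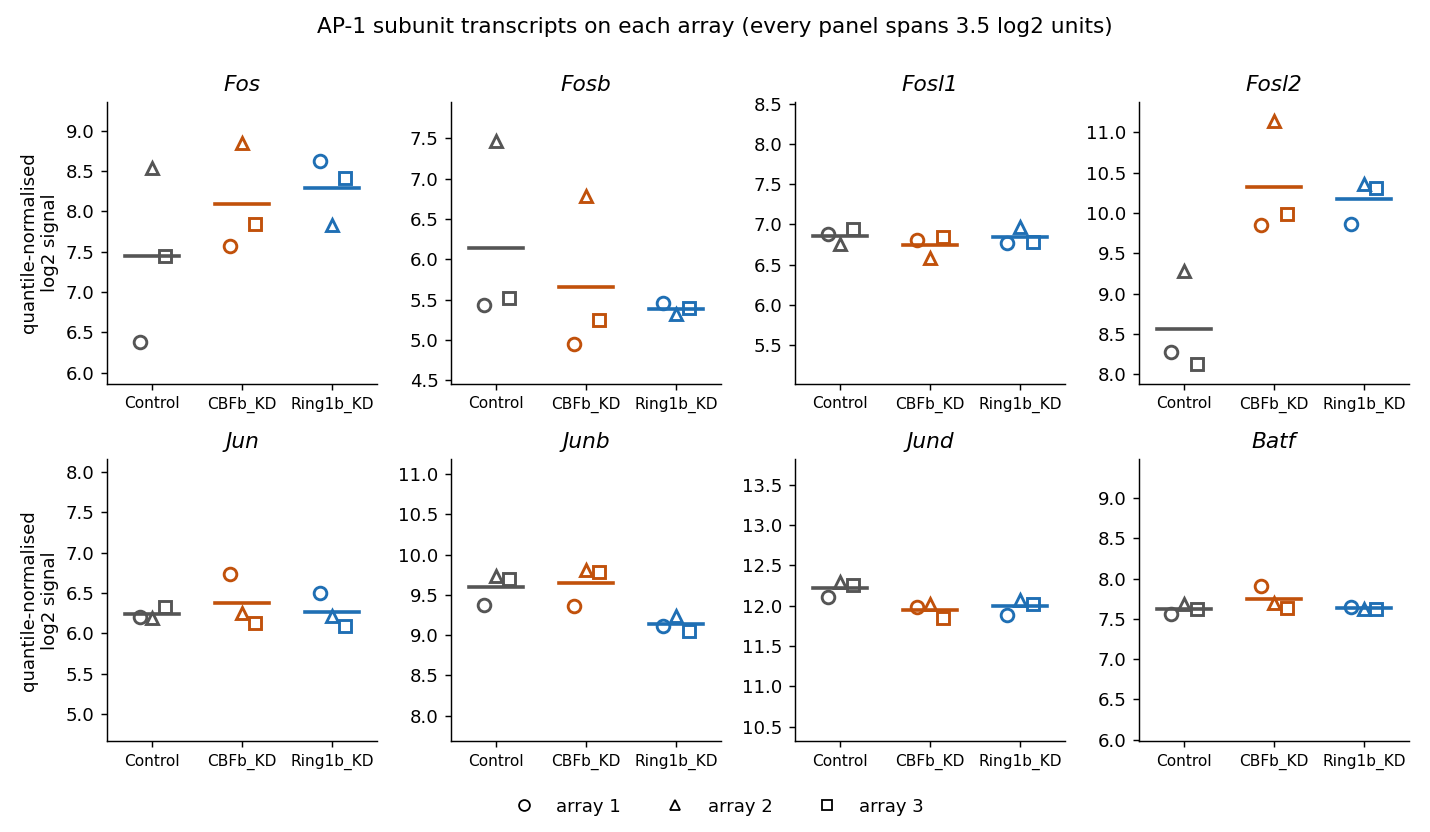
Quantile-normalised log2 signal (y axis) of the 8 AP-1 subunit genes on each of the 9 arrays, by group (x axis). Symbols mark the array number within its group, horizontal lines are means of 3 arrays, and every panel spans the same range of log2 units. Fosl2 lies between 9.85 and 11.14 in the knockdowns and between 8.12 and 9.28 in Control, and array 2 of Control and of CBFb_KD is high for Fos, Fosb and Fosl2.

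The arrays carried the changes their labels name. Cbfb was 9.02-fold lower in CBFb_KD (limma adjusted p = 3.28e-10) and Rnf2 3.17-fold lower in Ring1b_KD (limma adjusted p = 3.31e-07), without overlap between groups. Markers of the labelled cell type were read from 8 measured megakaryocyte genes, whose mean log2 signal per array was 8.42 to 8.82 in Control, 9.51 to 9.66 in CBFb_KD and 8.17 to 8.77 in Ring1b_KD. Of these 8 genes 4 rose in CBFb_KD (Gp9, Gp5, Ppbp and Itga2b) and none fell, and in Ring1b_KD none rose and Vwf fell, a call lost without Ring1b_KD array 1 or 3 or Control array 1 or 2 and with the lowest genes filtered. Erythroid markers rose in 3 of 6 measured cases in CBFb_KD and in 0 of 6 in Ring1b_KD (limma, 0 at an unadjusted p under 0.05). Of 8 mast cell markers 1 rose and 2 fell in CBFb_KD, and 2 rose and 1 fell in Ring1b_KD. Of 8 measured lymphoid markers 0 were called in CBFb_KD. In Ring1b_KD 1 rose (Cd8a), and the call was lost whenever any Ring1b_KD or Control array was left out. Of 8 granulocyte and monocyte markers 0 were called in either by limma. At an unadjusted p under 0.05 the count was 0 for both lists in CBFb_KD, and for the granulocyte and monocyte list 1 in Ring1b_KD. Over all genes 7.78% rose and 7.6% fell in CBFb_KD by limma, and 5.66% rose and 6.57% fell in Ring1b_KD. The markers are log2 signals without a true zero, so absence cannot be read from them. Fewer cells of a type and less RNA per cell cannot be told apart in such samples.

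The sequences before the annotated starts of these genes differ in the sites they hold for AP-1, CREB-type and RUNX factors, and 5 are shown because 1 knockdown lowers the partner of the RUNX proteins and AP-1 genes are known to be controlled through such sites. They are the 250 bases before the start in RefSeq on GRCm38.p6, read 5′ to 3′ on the gene's strand, with motif letters in capitals. RefSeq gave such a sequence for 7 of the 8 genes. The motifs searched on both strands were the AP-1 site TGACTCA, the cAMP response element TGACGTCA, the shorter element TGACG that it contains, the AP-1-like site TGACATCA, and the CArG box of serum response factor. For RUNX proteins the letters TGTGGT were searched, and as a second form TGCGGT.
Fosl2, chr5:32136222-32136471, plus strand: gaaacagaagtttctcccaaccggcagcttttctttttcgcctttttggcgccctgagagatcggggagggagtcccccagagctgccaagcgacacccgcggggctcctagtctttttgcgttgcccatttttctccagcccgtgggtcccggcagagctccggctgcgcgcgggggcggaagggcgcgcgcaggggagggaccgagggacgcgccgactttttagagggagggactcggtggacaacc
Fos, chr12:85473640-85473889, plus strand: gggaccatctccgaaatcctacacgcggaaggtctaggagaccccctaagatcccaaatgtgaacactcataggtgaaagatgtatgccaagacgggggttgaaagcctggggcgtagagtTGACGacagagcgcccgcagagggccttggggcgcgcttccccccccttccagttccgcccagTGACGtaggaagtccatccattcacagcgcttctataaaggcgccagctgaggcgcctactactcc
Jun, chr4:95052223-95052472, minus strand: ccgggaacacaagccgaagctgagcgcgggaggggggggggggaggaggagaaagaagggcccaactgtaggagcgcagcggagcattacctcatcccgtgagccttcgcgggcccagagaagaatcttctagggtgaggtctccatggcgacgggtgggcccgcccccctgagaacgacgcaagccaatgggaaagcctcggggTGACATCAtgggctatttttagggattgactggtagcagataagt
Junb, chr8:84978749-84978998, minus strand: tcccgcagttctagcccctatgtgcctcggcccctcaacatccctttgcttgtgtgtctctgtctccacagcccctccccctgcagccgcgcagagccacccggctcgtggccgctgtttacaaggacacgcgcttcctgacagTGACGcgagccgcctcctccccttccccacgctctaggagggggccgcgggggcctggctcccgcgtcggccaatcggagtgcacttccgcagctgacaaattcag
Batf, chr12:85686470-85686719, plus strand: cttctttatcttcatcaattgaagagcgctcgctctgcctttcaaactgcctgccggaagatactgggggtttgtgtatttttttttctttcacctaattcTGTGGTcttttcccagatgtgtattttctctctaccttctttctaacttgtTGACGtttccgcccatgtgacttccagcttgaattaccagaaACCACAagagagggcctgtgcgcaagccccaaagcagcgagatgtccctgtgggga

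The Fosl2 window held none of the 7 motifs. TGACG was found in 4 of the 7 member windows, where 17.8% of all 32851 such windows hold it, and in Fos it lay 129 to 125 and 66 to 62 bases before the start. Junb and Batf held it once each, at 106 to 102 and 98 to 94 bases, and Fosb at 60 to 56. TGACATCA was found in Jun, 45 to 38 bases before the start (2.93% of all windows). The first RUNX form was found in Batf, which held it on the plus strand 149 to 144 bases and on the minus strand 56 to 51 bases before the start (14% of all windows). The AP-1 site, the full cAMP response element, the second RUNX form and the CArG box matched 0 of the 7, and 4.46%, 1.55%, 5.1% and 1.47% of all windows. These matches describe letters in short windows, and binding was not measured on these arrays. Sequence farther from the start was not searched. A gene without a match here, such as Fos for the CArG box, may therefore hold the motif outside its window.

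The FOS family held the largest change and the widest spread. Fosl2 encodes FRA-2 and lies on chromosome 5, 32136472 to 32157840 on GRCm38.p6. Its log2 signal from the brighter probe set (1437247_at) was 8.27, 9.28 and 8.12 on Control arrays 1 to 3. It was 9.85, 11.14 and 9.99 on the CBFb_KD arrays, and 9.87, 10.35 and 10.31 on the Ring1b_KD arrays. Every knockdown array lay above every Control array, and array 2 was the highest in each group. The increase in CBFb_KD was 3.40-fold, or 1.77 ± 0.325 (SE) on the log2 scale, with a limma adjusted p of 0.00243. In Ring1b_KD it was 3.07-fold, or 1.62 ± 0.325, with a limma adjusted p of 0.0068. Of all genes, 1.82% were called higher in both knockdowns. The knockdowns themselves differed by 0.15 (95% interval -0.55 to 0.85, limma adjusted p = 0.795), which spans differences in either direction. Megakaryocyte and erythroid markers rose beside Fosl2 in CBFb_KD, by the counts given above, and none of either list rose in Ring1b_KD. Of the mast cell markers Hdc was called higher in both knockdowns (1.11 and 0.99) and Ms4a2 lower in both (-1.92 and -1.49). The part of these markers in the Fosl2 result was not tested. The Ring1b_KD call was lost with a robust variance (limma adjusted p = 0.0521).

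The other Fosl2 probe set (1422931_at) moved the same way by less. Its log2 signal was 7.99, 8.20 and 7.77 in Control, 8.18, 9.25 and 8.56 in CBFb_KD and 8.28, 8.62 and 8.89 in Ring1b_KD. CBFb_KD array 1 lay within the Control range, and all Ring1b_KD arrays lay above it. The log2 fold changes were 0.68 in CBFb_KD (limma adjusted p = 0.0931 over all probe sets) and 0.61 in Ring1b_KD (0.131). In CBFb_KD this probe set was called once the array number was a block (limma adjusted p = 0.0302 with 9 arrays) or CBFb_KD array 1 was left out (0.0174). In Ring1b_KD it was called with only the compared groups in the fit (limma adjusted p = 0.0446) or without CBFb_KD array 2 (0.0414). Of all probe sets, 9.64% were called in CBFb_KD and 8.48% in Ring1b_KD. Between the knockdowns 13.4% were. With the mean of both probe sets Fosl2 stood at 1.22 in CBFb_KD (limma adjusted p = 0.0135) and 1.11 in Ring1b_KD (0.0301).

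Fos encodes the founding FOS protein and lies on chromosome 12, 85473890 to 85477274. Its log2 signal was 6.38, 8.53 and 7.45 on the Control arrays, 7.58, 8.85 and 7.84 in CBFb_KD, and 8.62, 7.83 and 8.42 in Ring1b_KD. The Control arrays alone spanned more than the distance between any 2 group means, and all groups overlapped. The log2 fold change was 0.64 in CBFb_KD (95% interval -0.31 to 1.58, limma adjusted p = 0.434) and 0.84 in Ring1b_KD (-0.11 to 1.78, limma adjusted p = 0.244). Against the Control array of the same number, CBFb_KD was higher by 1.20, 0.32 and 0.39. Arrays of these groups with the same number deviated together, and with the number as a block and only these groups in the fit, Fos was called higher in CBFb_KD (limma adjusted p = 0.00868). That fit was added after the data were seen, and the block over all 9 arrays did not call it. In Ring1b_KD Fos was called without Control array 2 (log2 fold change 1.37, limma adjusted p = 0.0468). Its differences from the same-numbered Control arrays there were 2.25, -0.70 and 0.97.

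Fosb, which encodes the FOSB protein and its shorter form deltaFOSB, lies on chromosome 7, 19302696 to 19310118. Its log2 signal was 5.43, 7.47 and 5.52 in Control, 4.94, 6.78 and 5.24 in CBFb_KD, and 5.46, 5.32 and 5.39 in Ring1b_KD. Array 2 stood far above its companions in Control and in CBFb_KD, and the Ring1b_KD arrays lay close to each other. The log2 fold change was -0.48 in CBFb_KD (95% interval -1.55 to 0.59, limma adjusted p = 0.642) and -0.75 in Ring1b_KD (-1.82 to 0.32, limma adjusted p = 0.365). Except on array 2 of Control and of CBFb_KD, the signal lay below every array median (6.51 to 6.65). By array number CBFb_KD was lower by 0.49, 0.68 and 0.28. With the number as a block in the fit of these 2 groups Fosb was called lower (limma adjusted p = 0.00287). That fit was added after the data were seen, and the block over all 9 arrays did not call Fosb (limma adjusted p = 0.398). Without Control array 2 the value in CBFb_KD turned to 0.18, uncalled. Fos and Fosb thus had estimates of opposite sign in each knockdown. Neither was called when all 9 arrays entered, with or without the block.

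Fosl1, which encodes FRA-1 (chromosome 19, 5447698 to 5455938), varied little. The means of its brighter probe set were 6.86 ± 0.09 (SD, n = 3) for Control, 6.74 ± 0.14 for CBFb_KD and 6.84 ± 0.11 for Ring1b_KD, and all groups overlapped. The 95% interval of its log2 fold change was -0.32 to 0.08 in CBFb_KD and -0.22 to 0.18 in Ring1b_KD. The other Fosl1 probe set gave -0.06 and -0.25, neither called, though its Ring1b_KD arrays all lay below its Control arrays. A change of array signal of the size seen in Fosl2 thus lay outside the intervals of both probe sets. Both read near the array medians (6.51 to 6.65), so their intervals cannot bound the change in RNA.

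**Figure D2:**
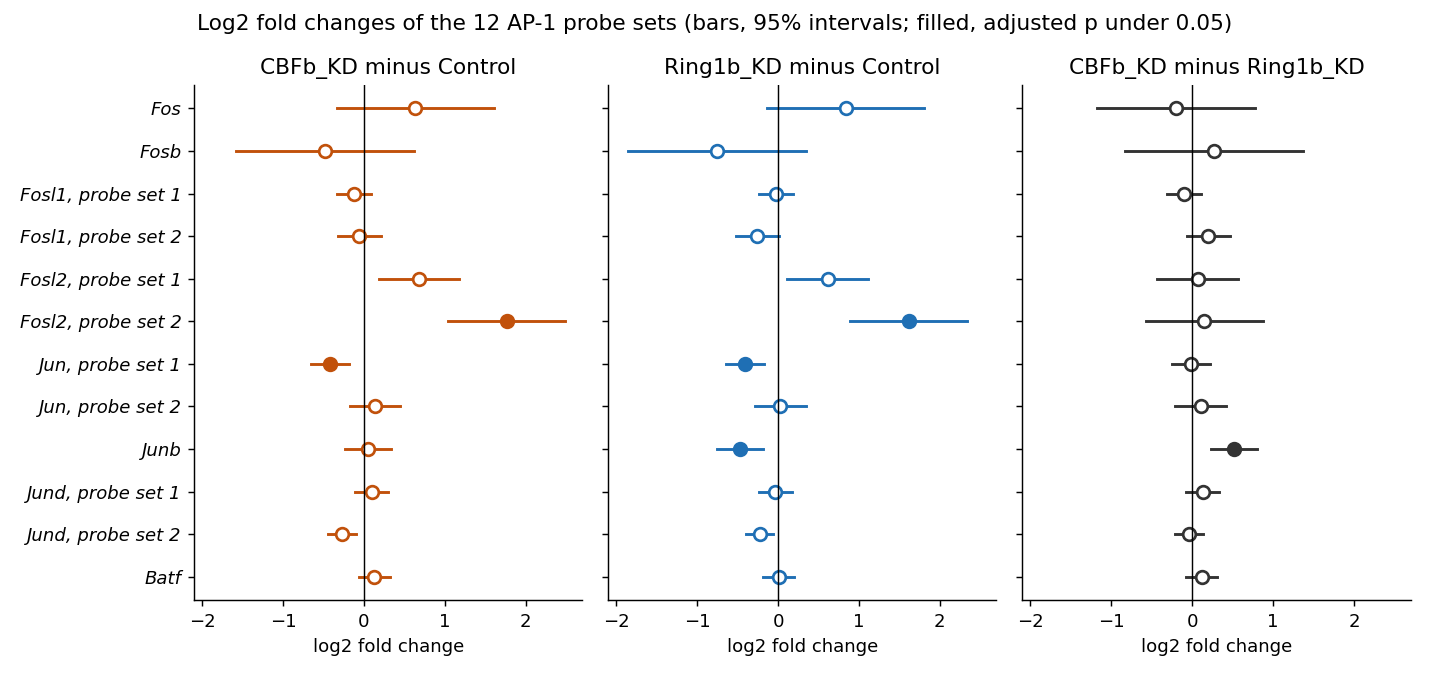
Log2 fold changes (x axis) of the 12 AP-1 probe sets (y axis) for each knockdown against Control and for CBFb_KD against Ring1b_KD. Points are limma estimates, bars 95% intervals, and filled points passed an adjusted p of 0.05 over all probe sets. The brighter Fosl2 probe set (drawn as probe set 2) is filled at 1.77 and 1.62, the dimmer Jun probe set (drawn as probe set 1) at -0.41 and -0.40, and Junb at -0.47 in Ring1b_KD and 0.52 between the knockdowns.

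Among the JUN genes, Junb was the member that separated the knockdowns. JUNB pairs with FOS proteins and can restrain JUN, and its gene lies on chromosome 8, 84976909 to 84978748. Its log2 signal was 9.38, 9.73 and 9.70 in Control, 9.36, 9.81 and 9.79 in CBFb_KD, and 9.11, 9.23 and 9.06 in Ring1b_KD. The 3 Ring1b_KD arrays lay below all others, while Control and CBFb_KD overlapped. Junb was 1.39-fold lower in Ring1b_KD (-0.47 ± 0.128 (SE) on the log2 scale, limma adjusted p = 0.0302) and stood at 0.05 in CBFb_KD (95% interval -0.23 to 0.33, limma adjusted p = 0.879). The difference between the knockdowns was 0.52 (SE 0.128, limma adjusted p = 0.0126). The call against Control was lost without Ring1b_KD array 1 or 3 or Control array 2 or 3, with values from -0.46 to -0.40, and that between the knockdowns without CBFb_KD array 2 or 3, at 0.44 and 0.45. Without both arrays numbered 2 of Control and CBFb_KD neither was called (-0.40 and 0.44).

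Jund, the JUN gene known for steady expression (chromosome 8, 70697739 to 70700616), had the narrowest spread of the JUN genes. Its brighter probe set gave 12.11, 12.29 and 12.26 in Control, 11.98, 12.03 and 11.84 in CBFb_KD, and 11.88, 12.07 and 12.03 in Ring1b_KD. All knockdown arrays lay below all Control arrays, by small amounts. Jund was 1.20-fold lower in CBFb_KD (-0.27 ± 0.0792 (SE) on the log2 scale, limma adjusted p = 0.0363) and stood at -0.23 in Ring1b_KD (limma adjusted p = 0.0816). The CBFb_KD call was lost without CBFb_KD array 1 or 3 or Control array 2 or 3, with median centring (-0.29, limma adjusted p = 0.067) and over all probe sets (0.0509). The Ring1b_KD value was called as deposited (-0.31, limma adjusted p = 0.0305) and with median centring (-0.39, limma adjusted p = 0.0144). The other Jund probe set gave 0.09 and -0.03, uncalled, and the mean of both probe sets -0.09 and -0.13.

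Jun, the gene of the founding JUN protein (chromosome 4, 95049036 to 95052222), gave different results by probe set. The brighter (1448694_at) read 6.20, 6.19 and 6.32 in Control, 6.73, 6.26 and 6.13 in CBFb_KD, and 6.49, 6.22 and 6.09 in Ring1b_KD, with all groups overlapping. Its log2 fold changes were 0.13 (95% interval -0.17 to 0.44) and 0.03 (-0.27 to 0.33). The dimmer (1417409_at) read 4.89, 5.36 and 5.26 in Control, 4.86, 4.76 and 4.65 in CBFb_KD, and 4.78, 4.80 and 4.72 in Ring1b_KD. All knockdown arrays lay below all Control arrays, with Control array 1 closest to them. This probe set was lower by 0.41 in CBFb_KD (limma adjusted p = 0.0291 over all probe sets) and by 0.40 in Ring1b_KD (0.0384). The signal of this probe set lay below every array median (6.51 to 6.65), and that of the brighter one did too, except on CBFb_KD array 1. Both calls were lost with only the compared groups in the fit and without Control array 2 or 3, and other single arrays ended 1 or the other, at limma adjusted p up to 0.156.

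Batf, whose protein pairs with JUN and is best known from lymphocytes (chromosome 12, 85686720 to 85709087), gave no call in any comparison. Its log2 signal was 7.55, 7.68 and 7.63 in Control, 7.91, 7.70 and 7.63 in CBFb_KD, and 7.64, 7.62 and 7.63 in Ring1b_KD. CBFb_KD array 1 was the highest of the 9. The 95% interval of the log2 fold change was -0.06 to 0.31 in CBFb_KD and -0.17 to 0.19 in Ring1b_KD.

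Fosb, Fos and Fosl2 were among the most variable transcripts between arrays of the same group, by the SD pooled over groups. The SD within groups, pooled over the 9 arrays, was 0.877 for Fosb, 0.771 for Fos and 0.569 for Fosl2 on the log2 scale, where the median gene had 0.109. Fosb ranked 2, Fos 3 and Fosl2 16 among 18193 genes, so that 1, 2 and 15 genes varied more. Jun followed with 0.222 and Junb with 0.193, and Fosl1, Jund and Batf lay between 0.0902 and 0.117. Leaving Fosl1 aside, the FOS genes varied more than the JUN genes by this pooled SD. Within Ring1b_KD alone that order did not hold for Fosb. Its SD there was 0.0706, below Jun (0.208), Jund (0.0968) and Junb (0.09).

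The spread had a pattern by array number. In Control, array 2 exceeded the next highest array by 1.08 for Fos, 1.95 for Fosb and 1.01 for Fosl2. In CBFb_KD the same gaps were 1.01, 1.54 and 1.15. In Ring1b_KD array 2 was the lowest for Fos and Fosb, and for Fosl2 it lay 0.05 above array 3. Array 2 was the highest of both Control and CBFb_KD for 5 of the 8 members, where 13.3% of all genes showed this. A gap of over 0.5 in array 2 of both Control and CBFb_KD, a size chosen after the values were seen, was found for 3 of the 8 members and for 19 of all genes (0.104%). The labels number the arrays without saying what a number marks, such as a day or an infection. Leaving out both of these arrays, Fosl2 stood at 1.71 in CBFb_KD (limma adjusted p = 0.000136) and at 1.96 in Ring1b_KD (limma adjusted p = 3.53e-05), with SEs of 0.154 and 0.141. Fos then stood at 0.79 in CBFb_KD (limma adjusted p = 0.175) and was called in Ring1b_KD at 1.36 (limma adjusted p = 0.0157). With all 9 arrays Fos was uncalled in Ring1b_KD (limma adjusted p = 0.244). This omission was added after the data were seen. It removed the arrays that stood highest for these genes, which narrows their spread, so these p-values are no independent support.

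**Figure D3:**
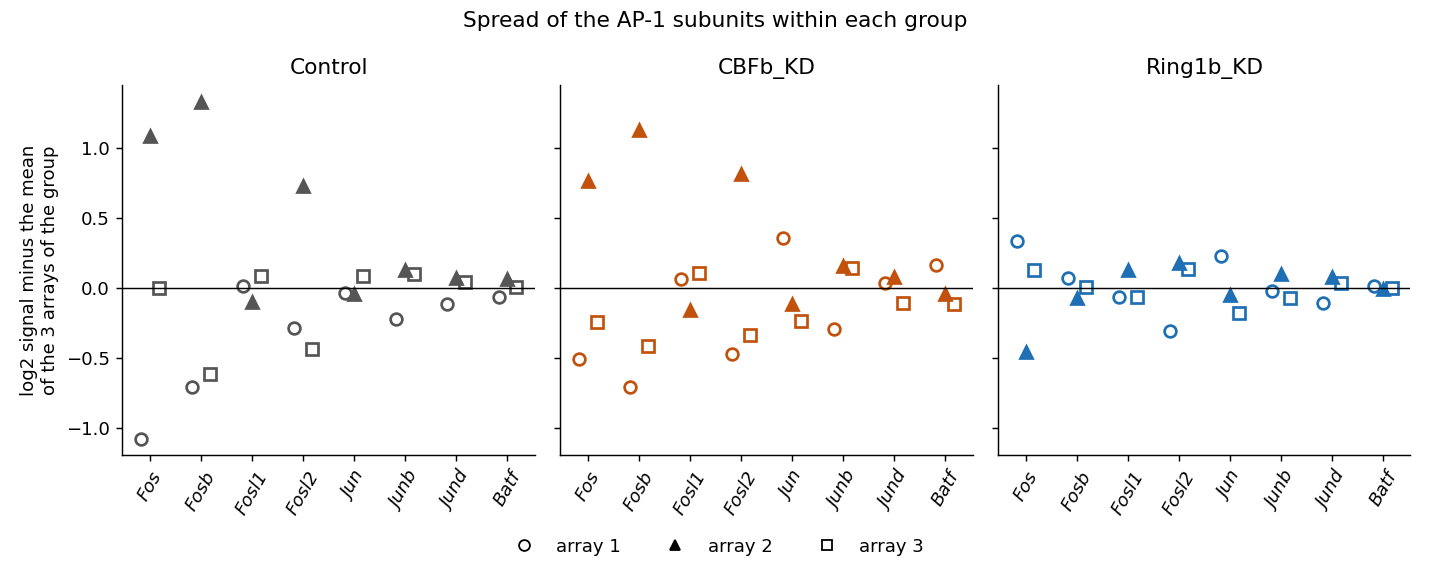
Log2 signal of each AP-1 subunit gene minus the mean of its group (y axis), by gene (x axis) and group (panels). Filled triangles are array 2 and open symbols arrays 1 and 3. Array 2 stands above its companions for Fos, Fosb and Fosl2 in Control and CBFb_KD, by 1.01 to 1.95 over the next array. In Ring1b_KD array 2 is lowest for Fos and Fosb, and for Fosl2 it lies 0.05 above array 3.

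The 19 genes with this gap were, after seeing their values, Nr4a2, Fosb, Crem, Fosl2, Fos, A630072M18Rik, Mxd1, Txndc11, Cytip, Bcl2l11, Tiparp, Hesx1, St8sia4, Per1, Ccrl2, Btn1a1, Metrnl, Ears2 and Ifngr1. Nr4a2, an orphan nuclear receptor induced early by many stimuli, had gaps of 1.91 in Control and 1.64 in CBFb_KD. Crem, a CREB family gene with a cAMP-inducible form, had 0.85 and 1.55, and Per1, a clock gene that is also stimulus-induced, had 0.80 and 0.68. In Ring1b_KD array 2 was the highest of its group for 14 of the 19, by 0.47 at most. A shared regulation of the 19 genes was not tested.

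Genes whose values followed those of the called members most closely over the 9 arrays were found by the root mean square difference of centred log2 values, as a description without a test. For Fosl2 they were Bcl2l11 (0.298), which encodes the pro-apoptotic BIM, Ccng2 (0.331), which encodes cyclin G2, and Nr4a2 (0.344). Relative to Control, Bcl2l11 stood at 1.40 (log2) in CBFb_KD and 0.94 in Ring1b_KD, Ccng2 at 1.86 and 1.41, and Nr4a2 at 1.81 and 1.89. Bcl2l11 was not called in Ring1b_KD (limma adjusted p = 0.051). For Junb they were Ssr3 (0.0992), of the translocon-associated complex, Zfp90 (0.0993), a zinc finger gene, and Cep135 (0.113), a centriole gene. Their log2 fold changes in Ring1b_KD were -0.51, -0.58 and -0.45. For Jund they were Fez2 (0.0616), Hebp2 (0.0664) and Phrf1 (0.0669), none of which was called in any comparison.

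Genes around AP-1 moved less than Fosl2 by its brighter probe set. The other Fosl2 probe set, at 0.68 in CBFb_KD, lay below Map2k3 (0.82) there. Beside the list counts below, 7.78% of all genes rose and 7.6% fell in CBFb_KD by limma. In Ring1b_KD these shares were 5.66% and 6.57%. Between the knockdowns 10.1% of all genes were higher and 9.31% lower in CBFb_KD. Among bZIP genes whose proteins can pair with AP-1 subunits, 18 of 20 were measured, and 1 rose in CBFb_KD while 1 rose and 1 fell in Ring1b_KD. Nfe2l2, which encodes the oxidative stress factor NRF2, rose in both, from 10.77 ± 0.20 (SD, n = 3) in Control to 11.25 ± 0.25 in CBFb_KD (log2 fold change 0.47, limma adjusted p = 0.0298) and 11.26 ± 0.19 in Ring1b_KD (0.48, limma adjusted p = 0.0331). Its CBFb_KD call was lost as deposited, with median centring, with the mean of probe sets, and without CBFb_KD array 2 or 3 or Control array 1 or 3. The Ring1b_KD call was lost under the same 3 settings and without Ring1b_KD array 1 or 2 or Control array 1 or 3, at limma adjusted p up to 0.715. Atf2, whose protein pairs with JUN at cAMP response elements, fell by 0.55 on the log2 scale in Ring1b_KD (limma adjusted p = 0.00118), and stood at -0.15 in CBFb_KD. The difference between the knockdowns was 0.40 for Atf2 (limma adjusted p = 0.00417). Atf3, a stress-induced member, stood at 0.07 and 0.03, and the median of the list was 0.02 in both.

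Of the kinases and factors that feed AP-1, 17 of 26 were measured, and 4 rose in CBFb_KD while 3 rose and 1 fell in Ring1b_KD. Map2k3, a kinase that activates p38, rose by 0.82 in CBFb_KD (limma adjusted p = 0.000108) and by 0.32 in Ring1b_KD (limma adjusted p = 0.0412). In CBFb_KD the p38 kinase Mapk14 (0.43) and its activator Map2k6 (0.46) rose too, and Mapk8, the JUN kinase JNK1, rose by 0.28 there and 0.27 in Ring1b_KD. Nras, a RAS gene, rose by 0.37 and Srf, the serum response factor that controls Fos, fell by 0.37 in Ring1b_KD. Between the knockdowns Map2k3 (0.49) and Mapk14 (0.36) were higher in CBFb_KD by limma, and 6 of the list were called as deposited. The CBFb_KD count was 2 without CBFb_KD array 2 or Control array 3, and the Ring1b_KD count 0 to 2 without any 1 Control or Ring1b_KD array, and 0 with probe sets averaged. The median over the 17 was 0.02 in CBFb_KD and 0.05 in Ring1b_KD.

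Of 20 textbook targets of AP-1 and phorbol ester, 18 were measured, and in CBFb_KD 0 passed limma, with 3 at an unadjusted p under 0.05. With the array number as a block 3 were called there, the metallothioneins Mt1 (-0.25, limma adjusted p = 0.0163) and Mt2 (-0.35, limma adjusted p = 0.0147) and the angiogenic factor Vegfa (0.51, limma adjusted p = 0.033). In Ring1b_KD Hmox1, the heme oxygenase gene, rose by 0.27, while Odc1, of polyamine synthesis, fell by 0.46 and Tgfb1 by 0.29, and without Control array 2 or 3 or Ring1b_KD array 1 or 3 only 1 of the list was called. Mmp9, a collagenase gene and classic TPA target, stood at 0.07 and 0.11, and Cd44 at 0.12 and -0.02. Between the knockdowns 2 were higher and 4 lower in CBFb_KD by limma, led by Tgfb1 (0.38), Mt2 (-0.66), Hmox1 (-0.36) and Odc1 (0.37). The list's median was -0.04 in CBFb_KD and 0.03 in Ring1b_KD.

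Factors that share composite sites with AP-1 (Irf4, Irf8, the NFAT genes, Ets1 and Ets2) gave 0 calls of 8 by limma in each knockdown, with 0 at an unadjusted p under 0.05 in CBFb_KD and 2 in Ring1b_KD. Of 7 regulators of JUN and FOS turnover or binding 5 were measured. Fbxw7, a ubiquitin ligase subunit that targets JUN, rose by 0.30 in CBFb_KD (limma adjusted p = 0.019) and fell by 0.35 in Ring1b_KD (limma adjusted p = 0.011). Its difference between the knockdowns was 0.65 (limma adjusted p = 0.000101). Cops5, known as JAB1 for its binding to JUN, fell by 0.23 in CBFb_KD (limma adjusted p = 0.0453), and Men1, whose product binds JUND, was lower by 0.35 in CBFb_KD than in Ring1b_KD (limma adjusted p = 0.0267). With the array number as a block and only CBFb_KD and Control in the fit, Men1 was called lower in CBFb_KD (-0.21, limma adjusted p = 0.0393). The CBFb_KD count of 2 in this list was 0 when CBFb_KD array 3 or Control array 1 or 2 was left out, and the Ring1b_KD count of 1 was 0 without Control array 3. The 3 calls between the knockdowns became 1 as deposited.

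**Figure D4:**
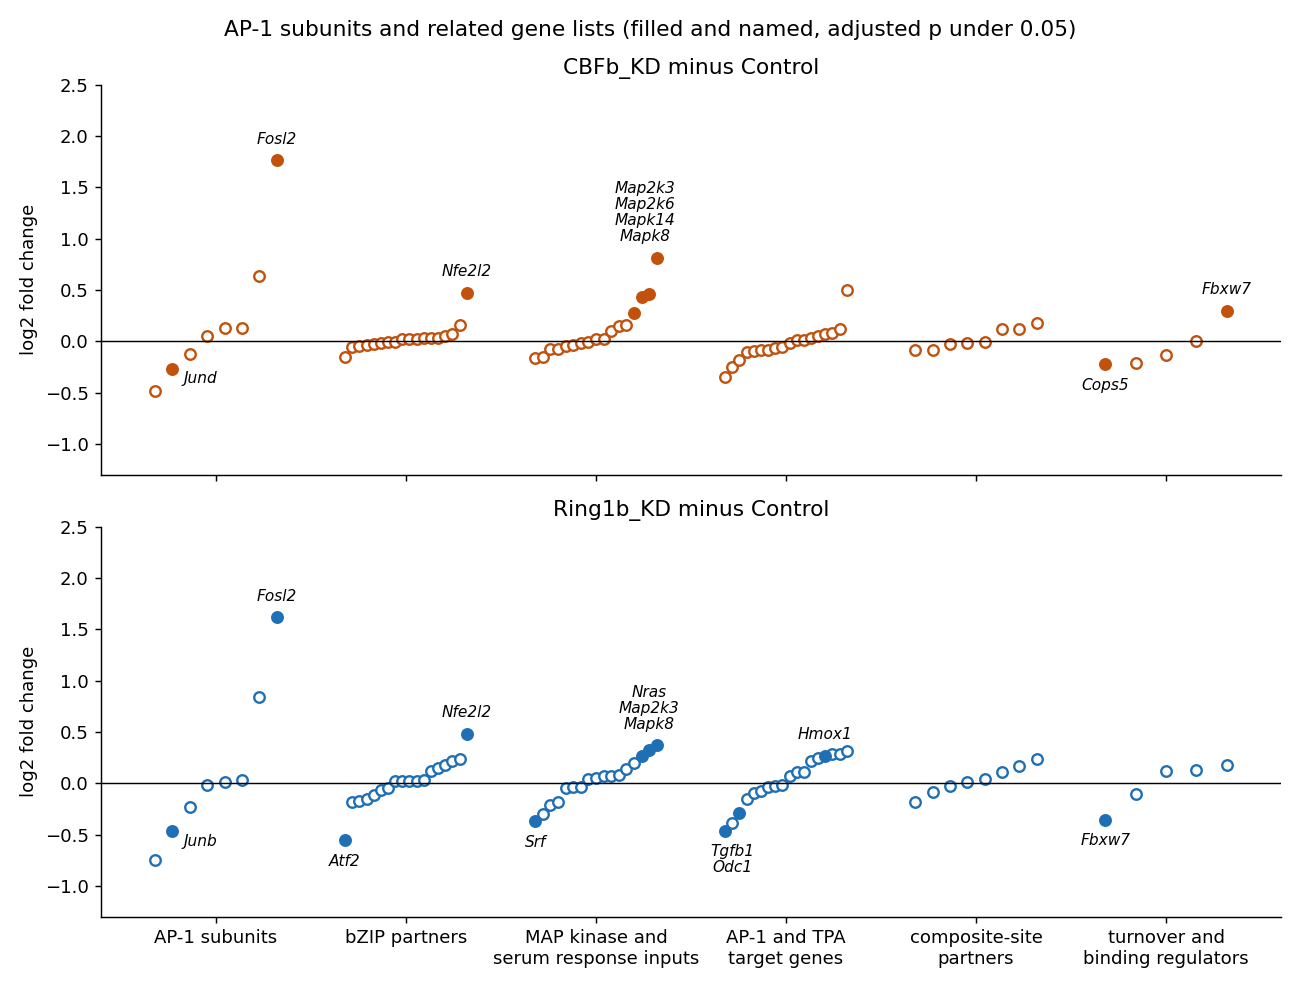
Log2 fold changes (y axis) of the AP-1 subunits and of 5 related gene lists (x axis) in CBFb_KD (top) and Ring1b_KD (bottom), each against Control. Each point is 1 gene, ordered by value within its list, and filled points with names passed a limma adjusted p of 0.05 over all genes. Fosl2, by its brighter probe set, stands at 1.77 and 1.62, above every gene of the other lists, of which Map2k3 is the highest at 0.82.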

How the data were processed

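Total RNA was labelled with biotin, per the labels, and read on one-colour arrays. The authors deposited log2 signals, a scale judged from the range of the values. How background, probes and arrays were treated before deposit is not given in the sources used here. Array medians ran from 6.51 to 6.65, so values were quantile normalised with limma 3.58.1 (R 4.3.3), and 64 control probe sets were then left out. Each gene was read from 1 probe set, the one of highest mean among those annotated to that symbol only. Group means were fitted to all 9 arrays with lmFit and eBayes(trend = TRUE), checked on simulated data. The simulated arrays were independent of each other, so the check does not cover deviations shared by same-numbered arrays. Tests were two-sided, with Benjamini-Hochberg adjustment across every gene (or every probe set where stated) and a threshold of 0.05. The members, lists and tests were chosen with earlier results of these data known. Named genes were all members, up to 4 called genes per list and comparison by smallest adjusted p, and the 3 nearest to each called member. Atf3, Mmp9, Cd44, Mt1, Vegfa and the genes of the array 2 pattern were named besides.

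Same-numbered arrays of CBFb_KD and Control deviated together from their group means (correlations over genes of 0.20, 0.38 and 0.20). The number may therefore pair them, which is a hint from the data and is not stated by the labels. The tests reported first were unpaired. For CBFb_KD against Control, paired values stand beside the members and related genes whose call they change. Pairs of Ring1b_KD with Control had -0.07, 0.04 and 0.15, and pairs of the knockdowns 0.05, 0.10 and -0.04. Alternatives were the values as deposited, median centring, the mean of probe sets, a filter on the lowest 25% of genes, 2 other variance models, only the compared groups, the array number as a block and leaving out each array. The block with 2 groups, and leaving out both arrays numbered 2, were added after the data were seen. Gene IDs of all 8 members matched GRCm38.p6.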

Additional observations from a re-analysis of the deposited data

How the results depend on the processing

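Fosl2 kept its increase in CBFb_KD (1.22 to 2.12, limma adjusted p from 4.16e-07 to 0.0319) and its direction in Ring1b_KD (1.11 to 1.97, limma adjusted p from 3.53e-05 to 0.0521) under all alternatives run. The lowest adjusted p of each came from a fit added after the data were seen. Median centring or the mean of probe sets left 1 member called in CBFb_KD, as did leaving out both arrays numbered 2, and a robust variance left 1 in Ring1b_KD. Leaving out both arrays numbered 2 gave 0 members between the knockdowns, and 1296 genes for CBFb_KD, 1261 for Ring1b_KD and 2125 for the knockdowns against each other, from fewer arrays. With the array number as a block, the counts were 3142 genes for CBFb_KD, 2611 for Ring1b_KD and 3938 for the knockdowns against each other, and no call of a member was gained or lost. With the block and only CBFb_KD and Control in the fit, 4 members and 3903 genes were called. Of the 9 arrays, 8 lay closest to one of their own number. Leaving out 1 array at a time gave 1752 to 2995 genes for CBFb_KD, 1144 to 2370 for Ring1b_KD and 2378 to 3569 for the knockdowns against each other. The lowest counts were 1752 without Control array 3 and 1852 without CBFb_KD array 2 for CBFb_KD, and 1144 without Control array 3 and 1225 without Control array 2 for Ring1b_KD. Members called were 1 to 2 in each knockdown and 0 to 1 between them. The cause of these changes was not tested. Low signal limits both Jun probe sets, the dimmer Jund probe set and that of Fosb, and both Fosl1 probe sets lay near the array medians.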
